A study of Rattus norvegicus with 5 samples.

Results

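The genes described here encode the antigen-presenting molecules of the rat major histocompatibility complex (MHC, named RT1 in the rat), the machinery that cuts and loads their peptides, the complement system, the Fc receptors that bind antibodies, and the Toll-like receptors with CD14 and Myd88. Members were the probe sets with a single gene symbol in the platform annotation that began with RT1- or belonged to a fixed pattern of symbols for the other families. This rule gave 73 of 31042 probe sets and 55 of 14217 genes, and it used no measured value. Fcer1g and Cfd were among the genes with the widest differences, and most members with a clear zonal pattern had higher values in the deep than in the superficial zones of the mandibular condylar cartilage.

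Cells were captured by laser from frozen 7 µm sections of wild type male Sprague-Dawley rats, 5 weeks old and untreated, and total RNA was amplified in 2 linear cycles before hybridization to an Affymetrix rat array. In the mandibular condylar cartilage (MCC) of the jaw joint, a fibrocartilage, the groups were the fibrous zone (FZ) at the surface, the proliferative zone (PZ) beneath it, the mature chondrocyte zone (MZ) and the hypertrophic chondrocyte zone (HZ). The reference group was femoral condylar cartilage (FCC) of the knee, a hyaline cartilage, from its middle and deep zones according to the methods. Each group was 1 array of pooled lysates, 30 sections per group in the labels and more for FZ in the methods, and neither source gives the number of animals behind a pool. A single array per group gives no spread between replicates, so nothing was tested and differences are reported as values.

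All values are log2 values relative to the median of the same probe set over the 5 arrays, so they show how arrays differ for a gene and hold no expression level. A difference of 1 is a 2-fold difference, and a gene was called higher or lower at a difference of at least 1 in size. A gene with several probe sets has their mean. For 20 of the 73 member probe sets, 2 or more arrays sat at exactly the median, and such arrays have no order. The zone labels were checked with the markers Tnmd, a tendon gene that read 5.29 in FZ, 2.86 in PZ and at most 0.00 elsewhere, and Col10a1, the collagen of hypertrophic chondrocytes, which read −2.73 in FZ, −1.61 in PZ, 0.62 in MZ, 0.37 in HZ and 0.00 in FCC. Col10a1 did not separate HZ from MZ. The arrays also differed technically. The 18 hybridization controls averaged 0.50 in FCC and −0.15, 0.44, −0.02 and −0.03 from FZ through HZ, the 3′ probe set of GAPDH read −1.46 in PZ and that of beta-actin −1.76 in FCC.

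MHC class I molecules display peptides of the cell interior on nearly all nucleated cells, whereas class II molecules display peptides from engulfed material mainly on macrophages, dendritic cells and B cells. Interferon-gamma raises both classes, together with the immunoproteasome that cuts peptides and the TAP transporter that carries them. Complement is a cascade of blood and tissue proteins that starts at the C1 complex, at lectins or on surfaces. Fc receptors and Toll-like receptors trigger white blood cells upon antibody or microbial products. Healthy articular cartilage holds few blood cells, while the marrow and vessels that meet hypertrophic cartilage hold many.

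The promoters of class II genes are known for an X box followed by a Y box, and the Y box holds the letters ATTGG, the reverse of the CCAAT box. They are shown because the genes belong to a family with common promoter elements, although RT1-Da alone of those printed differed by at least 1 between deep and superficial zones. The sequences are RefSeq promoters on the build GRCr8, which were found for 44 of the 55 genes. Windows of 105 bases upstream of the start are printed 5′ to 3′ along the gene, with capitals for ATTGG on either strand and for GCAACNG, a string like the start of the X box that was added to the search after the sequences had been read.
RT1-Da (chr20:4515285-4515389, plus strand): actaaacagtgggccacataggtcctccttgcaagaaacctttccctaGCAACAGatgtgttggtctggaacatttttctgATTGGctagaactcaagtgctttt
RT1-Db1 (chr20:4560188-4560292, minus strand): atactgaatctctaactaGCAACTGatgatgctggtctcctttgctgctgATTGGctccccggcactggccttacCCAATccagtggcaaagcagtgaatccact
RT1-Ba (chr20:4576927-4577031, plus strand): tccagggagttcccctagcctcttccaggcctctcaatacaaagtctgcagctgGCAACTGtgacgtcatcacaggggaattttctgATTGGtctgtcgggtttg
RT1-Bb (chr20:4604144-4604248, minus strand): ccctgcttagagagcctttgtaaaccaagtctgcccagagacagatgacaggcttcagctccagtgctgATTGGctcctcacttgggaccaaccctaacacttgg
RT1-DMa (chr20:4712361-4712465, minus strand): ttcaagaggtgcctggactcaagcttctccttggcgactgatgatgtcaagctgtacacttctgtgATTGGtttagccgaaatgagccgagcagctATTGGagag
In the promoters, 250 bases before to 50 bases after the start, ATTGG occurred in 6 of 6 class II genes and in 10 of 12 class I genes with a sequence, against 37.5% of all 33469 promoters. Across all members the share was 45.5%, or 20 of 44. GCAACNG occurred in 3 of 6 class II promoters, those of RT1-Da, RT1-Db1 and RT1-Ba, against 12.2% of all promoters, and in each of these 3 it lay upstream of an ATTGG.

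Most genes of the peptide-cutting and loading machinery held a different string, which was not limited to them. B2m and RT1-S3, printed last, are class I genes. Interferon-stimulated response elements hold a repeat of GAAA, and GAAANNGAA was searched for on both strands and is in capitals in the strand in which it was found, along or against the gene.
Psmb10 (chr19:50743293-50743382, minus strand): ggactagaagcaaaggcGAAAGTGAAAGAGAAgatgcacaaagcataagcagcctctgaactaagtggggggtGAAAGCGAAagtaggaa
Tap2 (chr20:4652297-4652386, minus strand): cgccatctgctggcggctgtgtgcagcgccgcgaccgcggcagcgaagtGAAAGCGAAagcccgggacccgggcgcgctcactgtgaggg
Tap1 (chr20:4668594-4668683, minus strand): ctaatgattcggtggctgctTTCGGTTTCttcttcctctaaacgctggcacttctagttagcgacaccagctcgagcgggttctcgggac
B2m (chr3:129549160-129549249, plus strand): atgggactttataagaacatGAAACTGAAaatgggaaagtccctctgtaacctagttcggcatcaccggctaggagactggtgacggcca
RT1-S3 (chr20:2675378-2675467, plus strand): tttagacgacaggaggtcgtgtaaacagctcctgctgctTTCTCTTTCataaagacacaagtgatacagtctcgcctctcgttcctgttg
GAAANNGAA occurred in 5 of 6 promoters of this machinery, those of Psmb8, Psmb10, Tap1, Tap2 and Tapbp. It was also in 2 of 3 Fc receptor promoters and in 3 of 7 promoters of Toll-like receptors and partners. It occurred in 3 of 12 class I promoters, 0 of 6 class II promoters and 0 of 9 promoters of complement components. The share was 9.71% of all promoters and 29.5% of those of the members. The printed genes did not share a size of difference, since Tap2 and Tap1 differed by 1.10 and 0.09 between deep and superficial zones. The letters TGACG were in 29.5% of member promoters and 21.2% of all, GAGGAAG in 20.5% and 12.4%, and GGGNNNTCC in 22.7% and 17.3%. A match of letters is a description and not a shown binding site.

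The comparison of the deep zones (mean of MZ and HZ) with the superficial zones (mean of FZ and PZ) asked how these genes change from the joint surface toward the bone. Of the 55 members, 10 were higher in the deep zones by at least 1, which is 18.2%, where 3.78% of all genes were. A single member, C1s, was lower by at least 1, which is 1.82%, where 2.24% of all genes were. At a limit of 2, Fcer1g and Cfd were higher, 3.64% of the members and 0.274% of all genes. The median difference was 0.31 over the members and 0.00 over all genes, and 45 of the 55 were above 0. Some of these were close to 0, such as C9 and C6 at 0.01 each. The share of all genes above 0 was not computed, which also limits such counts in the paragraphs by role. The shares of all genes higher and lower by at least 1 apply to the calls by role as well. A difference between zones can stem from fewer cells of a type or from less RNA per cell, which cannot be told apart in such pools.

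The number of higher members was 7 without PZ, 10 without FZ, 8 without HZ and 11 without MZ. Without PZ the number of lower members was 3 in place of 1. The shares of all genes were not computed for these smaller sets of arrays. The 10 genes each rest on a single probe set, as 44 of the 55 members do, and 0 of the 11 genes with several probe sets reached 1.

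**Figure D1:**
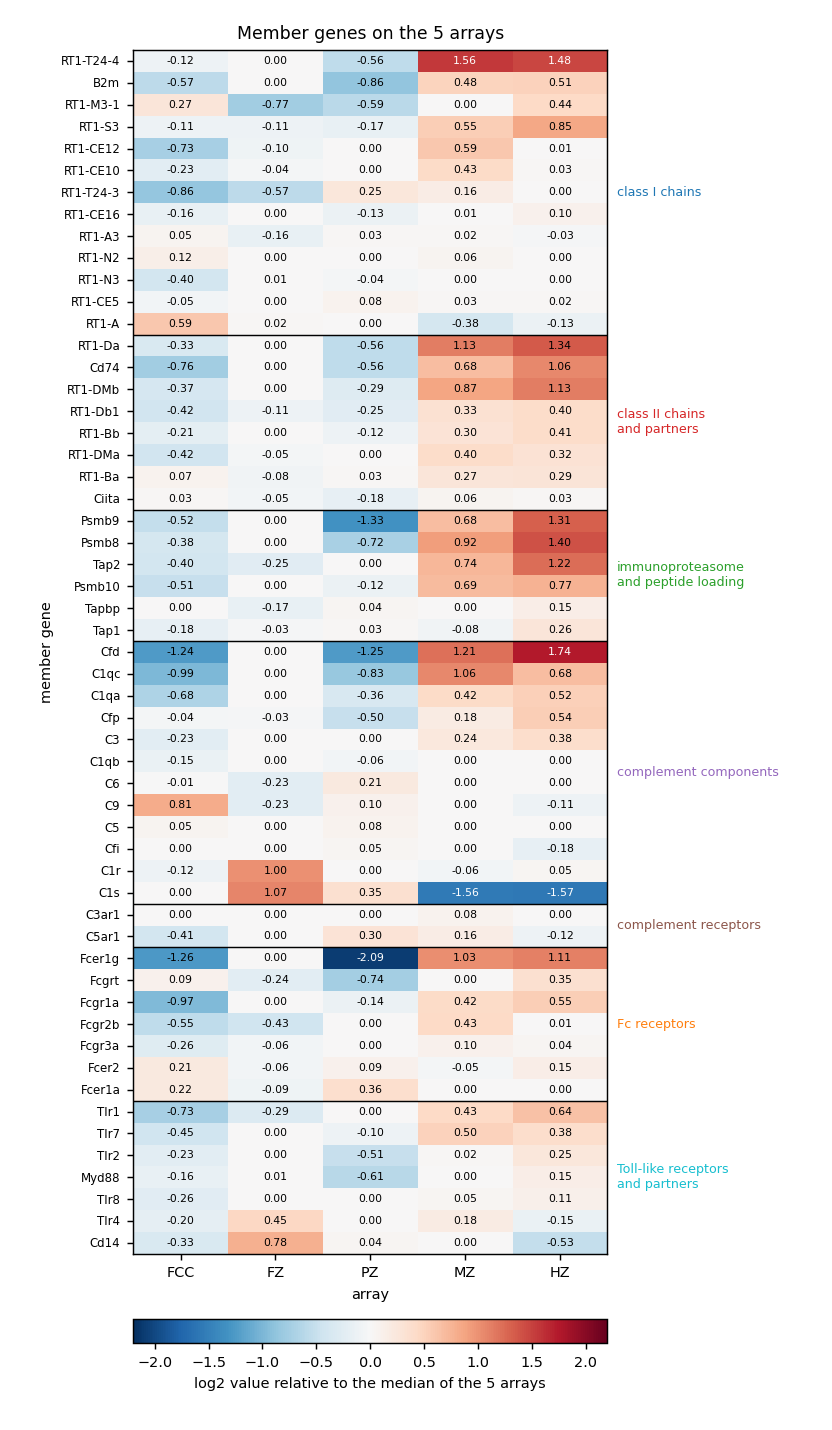
Heat map of the 55 member genes (rows, grouped by role) on the 5 arrays (columns), with the log2 value relative to the median of the arrays as colour and as number. Most strong colours are warm cells under MZ and HZ, up to 1.74 for Cfd in HZ, with C1s as the reverse at −1.57 in HZ.

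**Figure D2:**
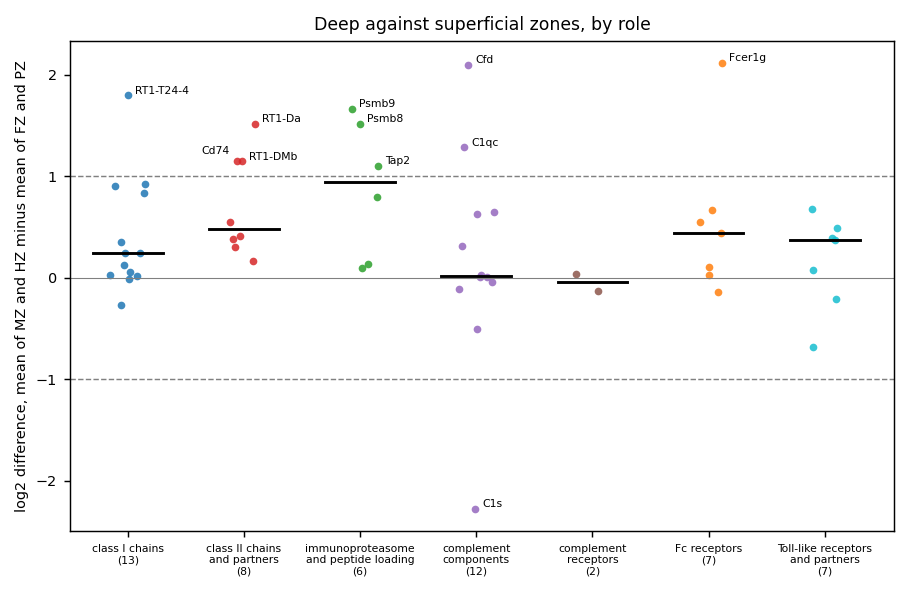
Log2 difference of each member gene between the mean of MZ and HZ and the mean of FZ and PZ, by role, with the number of genes in brackets. Points are genes, black lines medians and dashed lines the limit of 1. The 10 genes above the upper line are named, and C1s at −2.28 is alone under the lower one.

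Class II chains and their partners were above 0 in 8 of 8 genes, with a median of 0.48, and 3 were higher by at least 1. RT1-Da, the alpha chain of the DR-type molecule RT1-D, read −0.33 in FCC and 0.00, −0.56, 1.13 and 1.34 from FZ through HZ. RT1-DMb, a chain of the DM molecule that exchanges class II peptides, had −0.37, 0.00, −0.29, 0.87 and 1.13 in the order FCC, FZ, PZ, MZ and HZ, which is kept for all such lists of values. Cd74, the invariant chain that escorts class II molecules, had −0.76, 0.00, −0.56, 0.68 and 1.06. In all 3 genes both deep arrays lay above the other arrays, an order that 18.8% of all genes had. The 3 were singled out by their deep difference, so this order is no separate result. The differences between deep and superficial zones, the meaning of the word difference in the paragraphs by role, were 1.52 (2.86-fold) for RT1-Da, 1.15 (2.21-fold) for RT1-DMb and 1.15 (2.21-fold) for Cd74. Without PZ that of Cd74 was 0.87 and without HZ 0.96, so its call rested on these arrays.

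The other 5 genes of this group had ranges over the arrays from 0.24 to 0.83, and probe sets of the same gene disagreed. RT1-Ba, the alpha chain of RT1-B, differed by 0.30, but its 4 probe sets ran from −0.11 to 0.90. RT1-Bb, the beta chain of RT1-B, had probe sets at −0.10 and 0.92, and RT1-Db1, the beta chain of RT1-D, at 0.27 and 0.82. RT1-DMa, the partner of RT1-DMb, differed by 0.38. Ciita, the coactivator that switches class II promoters on, differed by 0.16 with probe sets at −0.10 and 0.43, and its range over the arrays was 0.24. Its range was thus the smallest of the group.

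**Figure D3:**
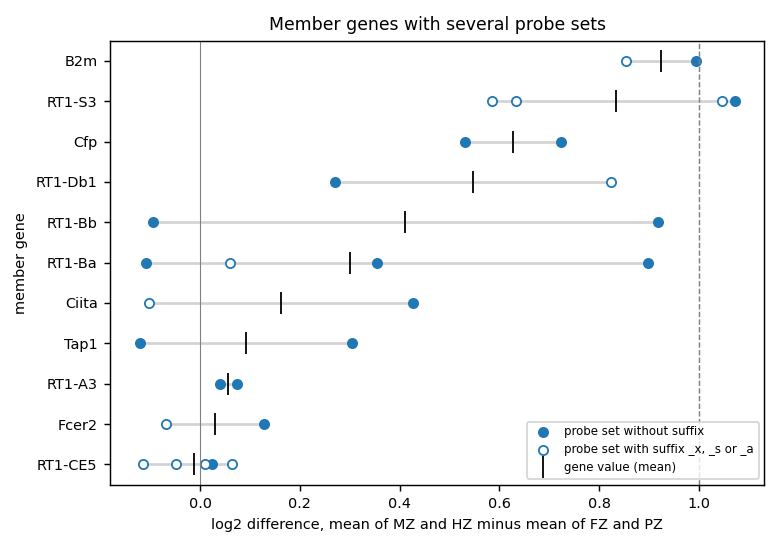
Log2 difference between deep and superficial zones for each probe set of the 11 member genes that have several. Open circles have a suffix that marks possible cross-hybridization, and the upright bar is the gene value. RT1-Bb and RT1-Ba span 0 to about the limit of 1 (dashed line), while both probe sets of B2m lie between 0.85 and 0.99.

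The genes that cut, carry and load peptides for class I were above 0 in 6 of 6 cases, with a median of 0.95, the highest of the 7 roles. Psmb9, an immunoproteasome subunit, read −0.52 in FCC and 0.00, −1.33, 0.68 and 1.31 from FZ through HZ. Psmb8, a further catalytic subunit, had −0.38, 0.00, −0.72, 0.92 and 1.397. Psmb10, the remaining inducible subunit, had −0.51, 0.00, −0.12, 0.69 and 0.77. All 3 subunits were highest in HZ and next highest in MZ, with differences of 1.66, 1.52 and 0.79 between deep and superficial zones. Psmb9 was at 0.998 without PZ, just under the limit.

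Tap2, a chain of the peptide transporter, read −0.40 in FCC and −0.25, 0.00, 0.74 and 1.22 from FZ through HZ, a difference of 1.10 that fell to 0.86 without HZ and 0.98 without FZ. Tap1, the other chain of the same transporter, differed by 0.09, with probe sets at −0.12 and 0.31. Tapbp, which bridges the transporter and class I, differed by 0.14. In the RefSeq annotation of chromosome 20, Tap2, Psmb8, Tap1, Psmb9, RT1-DMb and RT1-DMa follow each other with 0 annotated genes between them. Along this row the differences were 1.10, 1.52, 0.09, 1.66, 1.15 and 0.38, so that direct neighbours differed from each other. The constitutive subunit Psmb5, which Psmb8 replaces, differed by −0.01. Psmb7, another constitutive subunit, differed by 0.94, with −2.08 in PZ and values between −0.13 and 0.41 in the other arrays. Both were named after their values were seen.

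Class I chains varied less as a group, with a median of 0.24 over 13 genes and 1 gene higher by at least 1. RT1-T24-4, a nonclassical class I gene, read −0.12 in FCC and 0.00, −0.56, 1.56 and 1.48 from FZ through HZ, a difference of 1.80. It rests on 1 probe set whose suffix marks probes that can bind several related transcripts. B2m, the light chain of every class I molecule, had −0.57, 0.00, −0.86, 0.48 and 0.51, a difference of 0.92. In both genes MZ and HZ were the highest arrays and PZ was the lowest.

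RT1-S3 followed at 0.83, with −0.11 in FCC and −0.11, −0.17, 0.55 and 0.85 from FZ through HZ, and its 4 probe sets ran from 0.59 to 1.07. RT1-M3-1, a nonclassical gene of the M class, differed by 0.90 with 0.27, −0.77, −0.59, 0.00 and 0.44, so FCC lay above both superficial zones and above MZ. RT1-CE12 had −0.73, −0.10, 0.00, 0.59 and 0.01, highest in MZ alone. RT1-T24-3, unlike RT1-T24-4, was highest in PZ, with −0.86, −0.57, 0.25, 0.16 and 0.00. The other 7 class I genes had ranges from 0.12 to 0.97. Of these RT1-A had the widest, and it ran the other way, from 0.59 in FCC to −0.38 in MZ. Many class I genes are close copies of one another, and probes for one can bind others, so values of single RT1 class I genes are uncertain.

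Of the 54 members placed by RefSeq, 22 lay on chromosome 20, where the rat MHC is, and 6 of these were higher in the deep zones by at least 1. The other 32 held 4 such genes. Over all genes the share was 3.78%, and all genes of chromosome 20 were not counted apart. Among the 6, Tap2, Psmb8, Psmb9 and RT1-DMb lie in the row of neighbours given above.

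Complement components did not move as a group. Their median difference was 0.02 over 12 genes, with 2 higher and 1 lower by at least 1. The largest positive value belonged to Cfd, factor D, the protease that starts the alternative pathway loop and is also called adipsin. It read −1.24 in FCC and 0.00, −1.25, 1.21 and 1.74 from FZ through HZ, and its difference was 2.10 (4.29-fold), 1.47 without PZ. C1qc, a chain of the recognition part of C1, had −0.99, 0.00, −0.83, 1.06 and 0.68, a difference of 1.28 that was 0.87 without PZ. C1qa had −0.68, 0.00, −0.36, 0.42 and 0.52, a difference of 0.65. In these 3 genes both deep arrays were the highest, as in 18.8% of all genes. C1qb, their neighbour on chromosome 5 with 0 annotated genes between it and C1qc, had a range of 0.15 and 3 arrays at 0.00 besides.

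C1r and C1s, the proteases carried by C1q, ran the other way. C1s read 0.00 in FCC and 1.07, 0.35, −1.56 and −1.57 from FZ through HZ, a difference of −2.28 between deep and superficial zones, or 4.84-fold lower in the deep ones. C1r, its neighbour on chromosome 4 with 0 annotated genes between them, had −0.12, 0.999, 0.00, −0.06 and 0.05. Both proteases were thus highest in FZ, but only C1s was low in MZ and HZ. The difference of C1r was −0.51, and with FZ as the only superficial array C1r and Cd14 joined C1s as lower by at least 1. Serping1, the inhibitor of both proteases, differed by 1.11 in the direction opposite to C1s.

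Of the remaining components, Cfp, properdin, which stabilizes the alternative pathway convertase, read −0.04 in FCC and −0.03, −0.50, 0.18 and 0.54 from FZ through HZ, a difference of 0.63. C9, the pore-forming component, read 0.81 in FCC against −0.23, 0.10, 0.00 and −0.11 in the 4 MCC zones, so FCC lay above all 4 zones. C3, the central component, differed by 0.31, with 0.24 in MZ and 0.38 in HZ. C5, C6 and Cfi stayed within ranges of 0.08 to 0.44. The receptors of the cleaved fragments, C3ar1 and C5ar1, differed by 0.04 and −0.13.

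**Figure D4:**
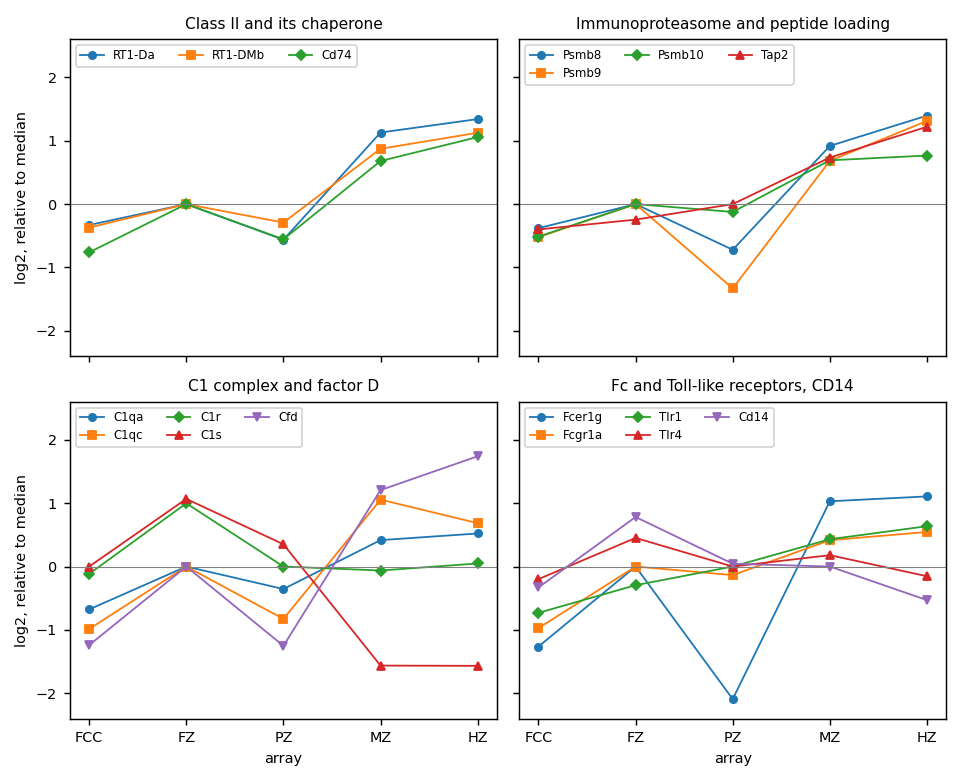
Log2 values relative to the median of the arrays (vertical axis) on the 5 arrays (horizontal axis) for selected class II, immunoproteasome, complement and receptor genes. Lines only guide the eye. C1s and C1r peak in FZ at 1.07 and 0.999, whereas Cfd, C1qc and the class II and immunoproteasome genes have their highest value in MZ or HZ.

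Among 7 Fc receptor genes the median difference was 0.44 and 1 was higher by at least 1. Fcer1g, the gamma chain through which several activating Fc receptors signal, read −1.26 in FCC and 0.00, −2.09, 1.03 and 1.11 from FZ through HZ, a range of 3.20, the widest of all members. Its difference between deep and superficial zones was 2.12 (4.33-fold), but 1.07 without PZ and 3.16 without FZ. Fcgr1a, the high-affinity receptor for IgG, had −0.97, 0.00, −0.14, 0.42 and 0.55, a difference of 0.55. Fcgrt, the neonatal Fc receptor that recycles IgG and is not restricted to blood cells, had 0.09, −0.24, −0.74, 0.00 and 0.35, a difference of 0.66. The signalling chain therefore differed more between arrays than any of the ligand-binding receptors on the list. Fcgr2b, the inhibitory receptor, and Fcgr3a had ranges of 0.99 and 0.36, and the IgE receptor genes Fcer1a and Fcer2 had ranges of 0.45 and 0.27.

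No Toll-like receptor or partner reached 1 between deep and superficial zones, and the median of the 7 genes was 0.38. Tlr1, which pairs with Tlr2 to sense bacterial lipopeptides, read −0.73 in FCC and −0.29, 0.00, 0.43 and 0.64 from FZ through HZ, a difference of 0.68. Tlr7, a sensor of single-stranded RNA, differed by 0.49, and Tlr2, Tlr8 and the adaptor Myd88 by 0.39, 0.08 and 0.38. Of the 7 genes, Cd14 and Tlr4 alone had differences below 0. CD14 (Cd14), the coreceptor that hands lipopolysaccharide to Tlr4, had −0.33 in FCC and 0.78, 0.04, 0.00 and −0.53 from FZ through HZ, a difference of −0.68. Tlr4 read −0.20, 0.45, 0.00, 0.18 and −0.15 and differed by −0.21. This is less than 0.26, the median SD between probe sets of the same member gene. Ly96, from the list of Toll-like receptor signalling, differed by 0.65 and was named after its value was seen. FZ was the highest array in 5 members, namely Cd14, Tlr4, C1r, C1s and, at only 0.01, RT1-N3. The share of all genes highest in FZ was not computed.

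The order of the arrays was counted next. Both deep arrays lay above all 3 others in 30 members, which is 54.5%, where 18.8% of all genes had this order. Both lay above both superficial arrays in 33 members, 60.0%, against 24.1% of all genes. FCC was the single lowest array in 27 members, 49.1% against 28.8%, and PZ in 13, 23.6% against 24.8%. HZ was the single highest array in 27 members, 49.1% against 18.2%, and MZ in 10, 18.2% against 14.3%. The median range over the arrays was 0.95 for the members and 0.61 for all genes, with 25 of the 55 members at 1 or more and 18 under 0.5. Of all 14217 genes, 3864 were at 1 or more and 5844 under 0.5. The separation of deep from superficial zones was therefore not carried by the called genes alone, while the place of PZ as lowest array was as frequent as among all genes.

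The zones of each pair were compared with each other as well. Between HZ and MZ, 0 of 55 members were higher and 0 were lower by at least 1, where 0.204% and 0.907% of all genes were, and the extremes were Psmb9 at 0.63 and RT1-CE12 at −0.58. Between FZ and PZ, 3 members were higher in FZ, 5.45% against 6.10% of all genes, namely Fcer1g by 2.09, Psmb9 by 1.33 and Cfd by 1.25. In the opposite direction 0 members reached 1, where 1.12% of all genes did, and RT1-T24-3 was the lowest at −0.82. The share between FZ and PZ was near that of all genes.

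Each MCC zone was then compared with the femoral cartilage. All 4 comparisons share the FCC array, so they are not independent. Against FCC, MZ had 17 members higher by at least 1, 30.9% against 6.98% of all genes, and HZ had 15, 27.3% against 8.09%. The median difference was 0.38 for MZ and 0.40 for HZ, where it was 0.03 and 0.00 over all genes. The 17 in MZ were Cfd, Fcer1g, C1qc, RT1-T24-4, RT1-Da, Cd74, Fcgr1a, RT1-CE12, Psmb8, RT1-DMb, Psmb9, Psmb10, Tlr1, Tap2, C1qa, B2m and RT1-T24-3. The 15 in HZ were these without RT1-CE12 and RT1-T24-3, which were at 0.74 and 0.86. The largest values were those of Cfd, 2.45 in MZ and 2.98 in HZ (7.90-fold), and of Fcer1g, 2.29 and 2.37. B2m, found on nearly every cell, was 1.05 higher in MZ and 1.07 higher in HZ. C1s alone was lower by at least 1, at −1.56 in MZ and −1.57 in HZ, 1.82% of the members in each, against 4.74% and 5.98% of all genes.

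FZ and PZ lay closer to FCC. In FZ, 5 members were higher by at least 1, 9.09% against 5.69% of all genes, and these were Fcer1g at 1.26, Cfd at 1.24, C1r at 1.11, Cd14 at 1.11 and C1s at 1.07. Another 2 were lower, 3.64% against 4.21%, and both C9 and RT1-M3-1 were at −1.04. In PZ, RT1-T24-3 was higher at 1.10, 1.82% against 4.65%, and 0 members were lower against 7.49% of all genes. The median differences were 0.21 in FZ and 0.10 in PZ. When the arrays were shifted to equal hybridization controls, the median of all genes itself moved, against FCC, to 0.66 (FZ), 0.07 (PZ), 0.55 (MZ) and 0.53 (HZ), and it moved to 0.17 for deep against superficial zones and to 0.59 for FZ against PZ. The member medians then stood at 0.86 for FZ, 0.90 for MZ and 0.93 for HZ, so relative to all genes they differed from FCC by less than their shifted values show.

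Other genes of the same pathways were read from lists of 21 to 31 genes. Of all genes, 3.78% were higher and 2.24% lower in the deep zones by at least 1. Of 17 measured genes of Fc receptor signalling, 9 were higher in the deep zones by at least 1 and 0 lower, with a median of 1.06, above that of the receptors themselves. Among them were the kinases Btk at 1.90 and Syk at 1.65, the phosphatase Inpp5d at 1.64, and the adaptors Blnk at 1.56, Lcp2 at 1.52 and Lat at 1.48. Syk, which binds the phosphorylated Fcer1g chain, read −0.45 in FCC and 0.00, −0.43, 1.25 and 1.63 from FZ through HZ. Fc receptor signalling was the list with the highest count, and Toll-like receptor signalling was the one with the lowest. In the latter 1 of 25 measured genes was higher, Lbp, which carries lipopolysaccharide to CD14, at 1.42, and the median was 0.05. This count was near the share of all genes.

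Among interferon response genes 3 of 21 were higher in the deep zones, with a median of 0.29. Rsad2, an antiviral protein induced by interferon, was at 1.86, Gbp2 at 1.18 and the transcription factor Irf1 at 1.02. Of the complement regulators, receptors and proteases 4 of 25 were higher, with a median of 0.19. These were Fcnb, a ficolin of myeloid cells, at 1.55, Itgax, a chain of complement receptor 4, at 1.44, the fluid-phase regulator Clu at 1.29 and Serping1. Clu was highest in FCC, at 1.84, and read −0.58, −1.21, 0.80 and 0.00 from FZ through HZ. Of the antigen processing genes and class II regulators 2 of 24 were higher, Ctsb at 1.21 and Ifi30 at 1.10, with a median of 0.35. Ctsb, a lysosomal protease, owed its value to PZ, where it read −2.33 while the other arrays lay between −0.07 and 0.02. In all 5 lists 0 genes were lower by at least 1, where 2.24% of all genes were. In lists of this size that share amounts to few genes.

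Markers of blood and vessel cells also differed between the arrays, and their lists did not share one pattern. The list of genes of all leukocytes had medians of −0.94 in FCC and 0.00, −0.45, 0.87 and 1.31 from FZ through HZ. In it 7 of 10 measured genes were higher in the deep zones by at least 1, where 3.78% of all genes were. Single genes of the leukocyte list ran from −2.18 to 0.00 in FCC, from −1.05 to 0.04 in FZ, from −1.46 to 0.00 in PZ, from 0.00 to 2.63 in MZ and from 0.62 to 1.52 in HZ. Ptprc, which encodes CD45, read −0.70, 0.00, −0.39, 0.62 and 0.72 in that order. The macrophage list had medians of −0.60, 0.00, −0.09, 0.80 and 0.92 with 5 of 11 genes higher, and Csf1r, the receptor that macrophages need, read −1.44, 0.00, −1.02, 0.91 and 1.31. In both lists MZ and HZ had the highest medians, as in the class II group. The same held for the lists of B, T and NK lymphocytes, neutrophils, dendritic cells, osteoclasts, erythroid cells, endothelium and hypertrophic chondrocytes. It did not hold for mast cells, fibroblasts and tendon, or hyaline chondrocytes.

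The B lymphocyte and osteoclast lists had the arrays in the same order as the leukocyte list. Their medians were −0.92, 0.00, −0.21, 1.02 and 1.80 for B lymphocytes and −1.01, 0.00, −0.39, 0.42 and 0.81 for osteoclasts. Some other lists had a different order. The neutrophil medians were 0.00, −0.16, −1.76, 1.04 and 0.88 and the erythroid medians 0.00, −0.75, −0.75, 0.44 and 0.94, so FCC lay above both superficial zones, while the medians in MZ were 0.02 for T and NK lymphocytes and 0.00 for mast cells. The number of genes higher in the deep zones by at least 1 was 6 of 7 for B lymphocytes and plasma cells (median 1.51), 2 of 9 for T and NK lymphocytes (median 0.27), 5 of 8 for neutrophils (median 1.84), 1 of 3 for dendritic cells (median 0.73) and 0 of 5 for mast cells (median 0.24). It was 2 of 5 for osteoclasts (median 0.82), 6 of 7 for erythroid cells (median 1.80) and 4 of 8 for endothelium (median 1.04). Over all genes the shares were 3.78% higher and 2.24% lower. Markers of hypertrophic chondrocytes were higher in 5 of 7 cases (median 1.39), hyaline chondrocyte markers in 3 of 8 with 2 lower (median 0.26), and markers of fibroblasts and tendon, the list to which Tnmd belongs, were lower in 5 of 9 with 0 higher (median −1.05). The fibroblast list had its highest median in FZ, at 0.74, the array in which C1s, C1r and Cd14 were highest. As the values hold no level, it cannot be read from them which markers were at or near background in an array. The part of these cell types in the differences of the members was not tested.

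**Figure D5:**
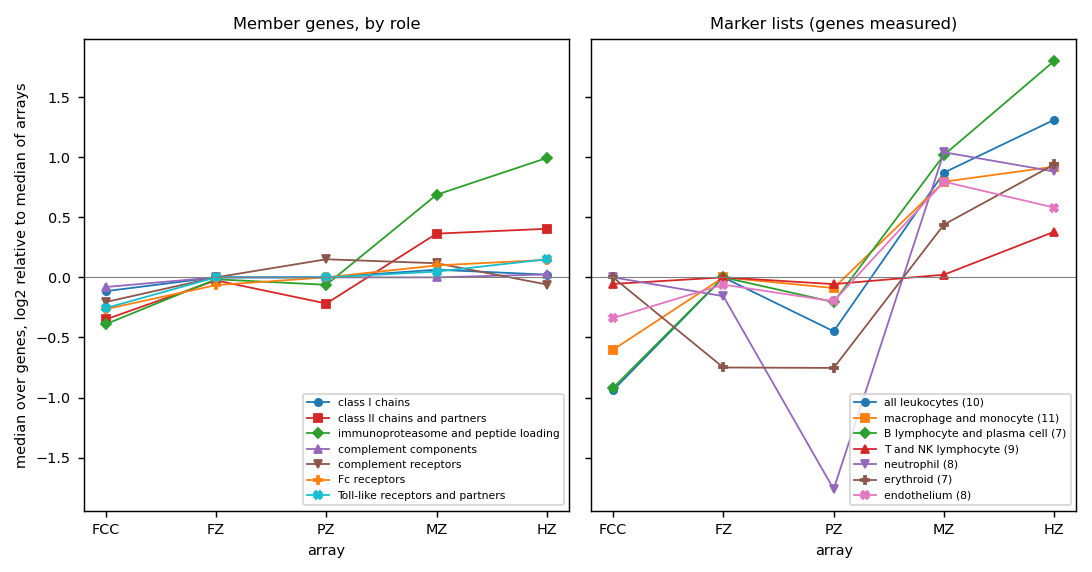
Medians over genes of the log2 values relative to the median of the arrays, for the members by role (left) and for marker lists of blood and vessel cells (right), on the 5 arrays. The immunoproteasome group rises to 0.69 in MZ and 0.99 in HZ, and the leukocyte list to 0.87 and 1.31.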

How the data were processed

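Per the methods, the authors deposited log2 values from RMA, that is, quantile normalized across arrays and set relative to the median that a probe set has over the 5 arrays (0 for all 31099). MAS5 and RMA are the tools in the submitters' processing notes, with no version, and for a genome build of the probes the sources used here give nothing. After 57 control probe sets were set aside, 31042 were used without a filter, since the values hold neither level nor signal over background, and the number of arrays limits the precision.

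Differences and plots were made in Python 3.11.15 (pandas 2.3.3, numpy 2.4.6, matplotlib 3.10.9). A gene value was the mean of the probe sets with that symbol alone, and the call limit was 1 on the log2 scale. Every member could be named, with all its values where its range was at least 1, and other genes only from the pathway lists at 1.5 or more in size or as the listed markers, except those said to be chosen later and those that make up a count. The members and lists were chosen with earlier results of these data known. Symbols came from the platform annotation, of which 54 of 55 matched RefSeq by gene ID and RT1-A did not. Some symbols of the rule, among them C2, C7, Cfb, Tlr3 and Tlr9, had no probe set under it and are not analysed here. The script that makes the calls was tested on simulated data. Alternatives were the scaling, the limit, the probe set taken for a gene, probe sets with a cross-hybridization suffix (17 of the 73) and leaving out an array.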

Additional observations from a re-analysis of the deposited data

How the results depend on the processing

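No paired analysis was possible because each group is 1 array. With arrays shifted to equal hybridization controls, the number of members higher than in FCC became 21 in FZ and 26 in HZ, and 17 were higher in FZ than in PZ. The number lower in FZ than in FCC became 0, and the medians became 0.86 for FZ, 0.90 for MZ and 0.93 for HZ against FCC and 0.64 for FZ against PZ. The same shift moved the median of all genes to 0.66 for FZ and 0.53 for HZ against FCC and to 0.59 for FZ against PZ. At a limit of 1.4 there were 6 members higher in the deep zones, 0 higher and 0 lower in FZ, 0 higher in PZ and 6 higher in MZ than in FCC, and 1 higher in FZ than in PZ. At a limit of 2 these became 2, 0, 0, 0, 3 and 1, with 2 higher in HZ than in FCC and 0 lower in either deep zone. At a limit of 0.8 there were 2 higher and 4 lower in PZ, 3 lower in MZ and 2 lower in HZ than in FCC, with 6 higher and 1 lower in FZ than in PZ. Without PZ, 3 members were lower in the deep zones. Apart from the limit of 2 for deep against superficial zones, shares of all genes were not computed for the counts of this paragraph. These counts therefore show how the calls depend on the settings and not how members compare with all genes. Of the 138 summary values compared, 108 stayed within limits. All 264 single-gene values kept their direction, but only genes with a difference of at least 1 were followed. Centring changed nothing, as each array had a median of 0.00. The shift followed control averages between −0.15 and 0.50, too close together to reverse such a difference. The choice of probe set could not change a gene with 1 probe set. The kept direction was thus largely fixed by the settings. Leaving out suffixed probe sets left 50 of the 55 genes. The causes were not tested.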

Other observations

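Some probe sets carry several gene symbols and were not members. The probe set of C4b and C4a, complement components of the classical pathway, read 2.05 in FCC and −0.05, −0.25, 0.00 and 0.23 from FZ through HZ, so the differences of the 4 MCC zones from FCC lay between −2.30 and −1.82. C9 also had its highest value in FCC. The 4 probe sets of Cfb and C2, the proteases of the alternative and the classical convertases, differed between deep and superficial zones by 0.95, 0.93, 1.12 and −0.14, so one probe set did not follow the other 3. Of the 2 probe sets shared by Fcgr2al1 and Fcgr2a, low-affinity IgG receptors, the differences were 0.36 and 0.80, and the probe set of RT1-A3 and RT1-A2 differed by 1.17, whereas RT1-A3 alone differed by 0.06.

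Among the pathway lists, FCC lay apart from the 4 MCC zones in some genes. Irak2, a kinase below the Toll-like receptors, read 2.17 in FCC and between −0.60 and 0.09 in the MCC zones. Cd1d1, which presents lipids, had its lowest value in FCC and also differed between zones, with −1.99 in FCC and −0.70, 0.00, 0.59 and 0.51 from FZ through HZ. These values have no replicate, and no explanation for them was tested.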
